A study of Mus musculus with 8 samples.

Results

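The 10 genes described here belong to the antigen presentation pathway and were chosen by symbol from the 27998 genes counted in single cells of the mouse mammary gland. They are the class I genes H2-K1, H2-D1 and B2m, the peptide transporter genes Tap1 and Tap2, the class II genes H2-Aa, H2-Ab1 and H2-Eb1, the class II invariant chain gene Cd74, and Ciita. The cells came from 8 female C57BL/6N mice, with 2 mice at each of 4 stages, and each library held the cells of 1 mouse. NP mice were nulliparous and 8 weeks old. G mice were taken at gestation day 14.5, L mice on lactation day 6, and PI mice (post-involution) when 11 days had passed since they weaned their litters naturally. Viable cells with EpCAM, an epithelial surface protein, were sorted, and those with CD31, CD45 or Ter119 (endothelial, leukocyte and red cell proteins) were gated out. All 4 groups share this strain, and the labels name no transgene, drug or deletion.

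Class I molecules sit on nearly all cells and show peptides cut from the cell's own proteins to CD8 T cells. H2-K1 and H2-D1 encode their heavy chains, B2m the shared light chain, and Tap1 and Tap2 the partner chains of the transporter that carries peptides into the endoplasmic reticulum. Class II molecules are held mainly by dendritic cells, macrophages and B cells, which show peptides from outside the cell to CD4 T cells. H2-Aa and H2-Ab1 encode the chains of I-A, H2-Eb1 the beta chain of I-E, Cd74 the chaperone that fills the groove of new class II molecules, and Ciita the co-activator that turns class II genes on. C57BL/6 mice make no I-E alpha chain, so that H2-Eb1 transcripts of this strain have no known surface partner. Epithelial cells can make class II molecules when interferon gamma reaches them, and the mammary gland also holds macrophages and dendritic cells in and around its ducts.

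Of the cells that passed the authors' filters, 25009 were joined to counts of unique molecular identifiers (UMIs, each marking 1 captured transcript), and 23183 of them lay in the authors' epithelial clusters C1 to C15. The libraries held 13306760 to 34552742 UMIs, with a median of 3770 to 9624 UMIs per cell. A further 599 cells lay in the immune clusters C16 (78 cells) and C17 (521 cells), almost all from G and L mice, with 8 cells from NP mouse 1, none from NP mouse 2, and 3 and 10 from the PI mice. Among the deposited barcodes, 791 were shared between libraries, and none of these was among the passing cells. UMIs were summed per mouse and cluster where a cluster held 20 or more cells of the mouse, which gave 35 epithelial sums, and levels are CPM, a gene's UMIs scaled by all UMIs of the sum. Both mice of a stage gave a sum in 17 combinations of epithelial cluster and stage. The clusters are named here as the study named them, and since they were made from the same transcripts, levels of clusters are a description with no test.

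7 of the 10 genes lie on chromosome 17 within the major histocompatibility complex. In the GRCm38 annotation H2-K1 spans chr17:33996017-34000347 on the minus strand, Tap1 chr17:34187553-34197225, Tap2 chr17:34203527-34216321 and H2-Ab1 chr17:34257689-34269419 on the plus strand, H2-Aa chr17:34282744-34287823 on the minus strand, and H2-Eb1 chr17:34305867-34316674 and H2-D1 chr17:35262730-35267499 on the plus strand. B2m lies at chr2:122147686-122153083 and Ciita at chr16:10480059-10528418, both on the plus strand, and Cd74 on chromosome 18. H2-K1, H2-D1, H2-Q6 and H2-Q7 are close relatives in sequence, and reads that fit more than 1 of them could have been dropped or misplaced in counting, so their separate values are uncertain.

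The H2-K1 and H2-D1 promoters hold a near-identical stretch of 30 bases, shown here because H2-K1 and H2-D1 rose together in all 3 luminal cell types after involution. The first capitals mark an inverted repeat known to bind NF-kB, and the last capitals a reverse copy of GAANNGAAA, a form of the interferon-stimulated element. H2-K1 is read from chr17:34000429-34000458 (minus strand) and H2-D1 from chr17:35262923-35262952 (plus strand) of GRCm38.p6, with sequences from RefSeq. These are bases 111 to 82 before the RefSeq start of H2-K1 (base 34000347) and bases 171 to 142 before that of H2-D1 (base 35263094), which lies inside the longer span that the GENCODE annotation gives H2-D1.

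H2-K1: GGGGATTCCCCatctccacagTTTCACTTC

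H2-D1: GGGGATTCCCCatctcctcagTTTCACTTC

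The stretches differ by A18T, with the H2-K1 base first and positions counted from the first base shown. Of 32851 RefSeq promoters (250 bases before to 50 after the start, both strands), 10 held this inverted repeat, which is 0.0304%, and 6.31% held GAANNGAAA. These and the other motifs were chosen after the sequences had been read, and a match is not a measured binding site.

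The promoter of B2m (chr2:122147437-122147686, plus strand) and those of H2-Aa (chr17:34287824-34288073, minus strand) and H2-Eb1 (chr17:34305617-34305866, plus strand) are shown because the levels of B2m and H2-Eb1 parted from those of their relatives in 1 cluster described further on, with H2-Aa as a class II relative whose level there did not. Each is the 250 bases before the start, 5′ to 3′.

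B2m: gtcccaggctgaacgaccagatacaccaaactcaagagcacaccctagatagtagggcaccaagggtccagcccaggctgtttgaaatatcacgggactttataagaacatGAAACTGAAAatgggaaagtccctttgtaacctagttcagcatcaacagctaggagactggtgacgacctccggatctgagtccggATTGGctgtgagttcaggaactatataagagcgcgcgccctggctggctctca

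H2-Aa: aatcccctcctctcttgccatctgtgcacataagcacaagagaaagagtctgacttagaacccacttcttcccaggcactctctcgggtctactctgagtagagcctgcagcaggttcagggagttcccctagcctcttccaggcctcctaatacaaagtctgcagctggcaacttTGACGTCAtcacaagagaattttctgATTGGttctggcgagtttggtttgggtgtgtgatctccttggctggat

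H2-Eb1: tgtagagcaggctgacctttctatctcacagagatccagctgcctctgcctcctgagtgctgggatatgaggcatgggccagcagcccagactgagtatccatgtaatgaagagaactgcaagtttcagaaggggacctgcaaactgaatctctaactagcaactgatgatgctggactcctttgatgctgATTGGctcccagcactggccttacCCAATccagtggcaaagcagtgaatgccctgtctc

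Capitals mark a longer form of the interferon-stimulated element (GAAA, any 2 bases, GAAA, at bases 139 to 130 before the start) and a reverse CCAAT in B2m, TGACGTCA (the cyclic AMP response element, bases 74 to 67) and a reverse CCAAT in H2-Aa, and a CCAAT on each strand in H2-Eb1. Of all promoters 2.98% held that longer form, 1.55% TGACGTCA and 33.8% CCAAT. The reverse CCAAT lay at bases 53 to 49 in B2m, 48 to 44 in H2-Aa and 59 to 55 in H2-Eb1. A promoter sequence was at hand for 6 of the 10 genes, the others being H2-K1, H2-D1 and Tap1, while Tap2, H2-Ab1, Cd74 and Ciita had no entry.

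Class I transcripts were present in every epithelial cluster, and the summed level of H2-K1, H2-D1 and B2m ran from 1280 to 11653 CPM over the 17 combinations. H2-K1, a class I heavy chain gene, was highest in the differentiated hormone-sensing cells of PI mice (C3, 1185 and 947 CPM) and in the differentiated alveolar cells of G mice (C8, 1080.1 and 1031 CPM). It was lowest in the lactating myoepithelial cells (C14, 206 and 298 CPM) and in the Procr+ cells of L mice (C15, 214 and 156 CPM), in which the study saw some pericyte markers. The highest mean was 5.76 times the lowest. Along the order of means, mice of neighbouring combinations overlapped in 13 pairs and were apart in 3, so that most neighbours were not ordered beyond the spread of the mice.

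**Figure D1:**
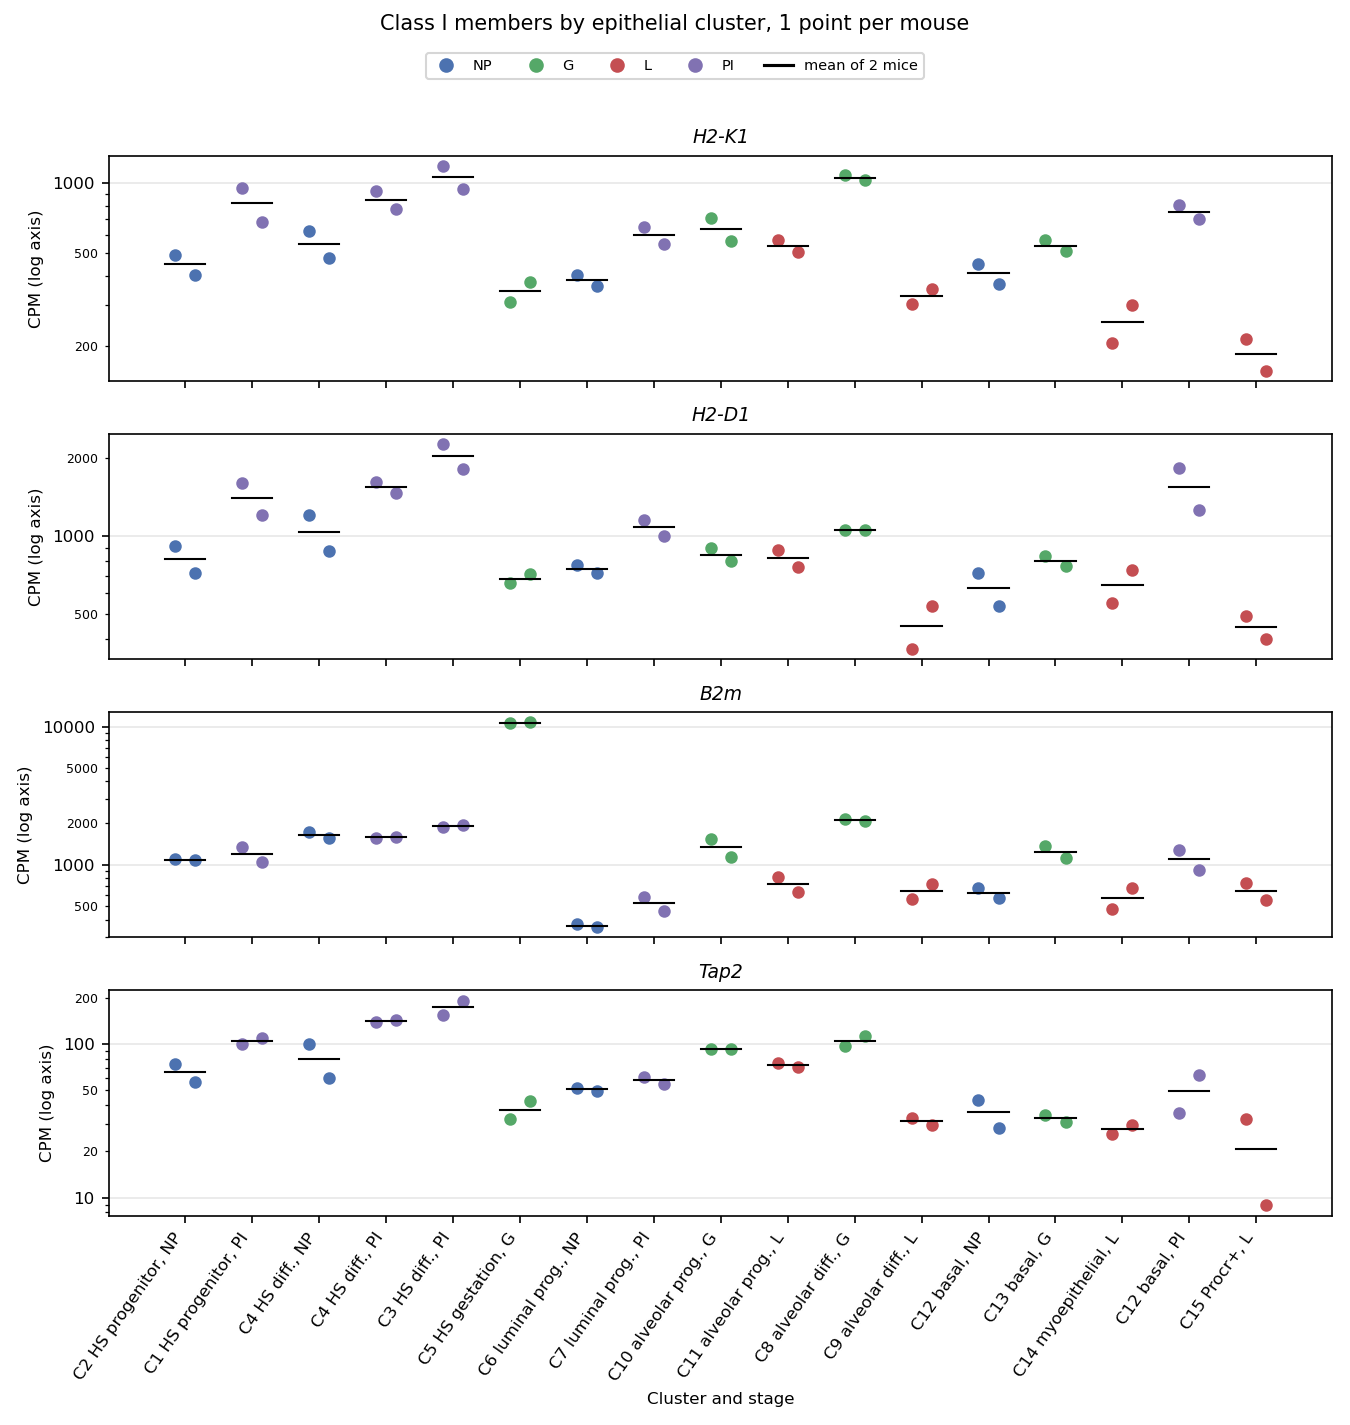
Levels of 4 class I pathway genes (CPM, log axis) by cluster and stage, with 1 point per mouse and a line at the mean of 2 mice. HS stands for hormone-sensing. B2m of C5 in G mice lies at 10532 and 10721 CPM, above every other epithelial sum, while H2-K1 of C5 lies at 308 and 375 CPM.

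H2-D1, the other heavy chain gene, was also highest in C3 (2268 and 1822 CPM) and lowest in C15 (492 and 400.5 CPM). The ratio of H2-D1 to H2-K1 UMIs was not fixed over the clusters. It was 0.979 and 1.03 in the alveolar cells of C8, 1.91 and 1.99 in the luminal progenitors of NP mice (C6), and 2.67 and 2.48 in C14. Hormone-sensing sums lay between, with a ratio of 1.68 to 2.13.

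B2m, the light chain gene, followed another order. By the mean it was lowest in luminal progenitors, at 370.3 and 352 CPM in C6 and 586 and 465 CPM in C7 of PI mice. C6 lay apart from C7, while C7 overlapped C14, whose mice had 481 and 673 CPM. In the differentiated hormone-sensing cells of NP mice (C4) it was 1726 and 1563 CPM, and in C8 2154 and 2064 CPM. Neighbouring combinations overlapped in 10 pairs and were apart in 6, and the step from C5 to C8 was the widest of these.

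Tap1 and Tap2, which encode the partners of 1 transporter, differed in pattern. Tap2 was highest in C3 (155 and 193 CPM) and C4 of PI mice (139 and 144 CPM), and stayed at 26.0 and 29.7 CPM in C14. Tap1 was highest in C8 (47.3 and 43.0 CPM) and in basal cells of PI mice (C12, 71.7 and 24.7 CPM, of which the first rests on 8 UMIs). The ratio of Tap2 to Tap1 UMIs was 5.33 and 6.67 in C3, 2.06 and 2.62 in C8 and 1.38 and 1.53 in the basal cells of G mice (C13). In C17 it was 0.875 to 1.5, so that the ratio in C3 was above that of every sum of C8, C13 and C17. A high ratio was not particular to C3, since C1 of PI mouse 2 had 110 CPM of Tap2 beside 18.9 CPM of Tap1.

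The hormone-sensing cells of gestation (C5) were few, with 20 and 41 cells, and their members of both classes were out of proportion to each other. B2m stood at 10532 and 10721 CPM in the G mice, above the 8726 and 9261 CPM of the immune cluster C17 of the same mice. H2-K1 of C5 was 308 and 375 CPM, which made 34.2 and 28.6 B2m UMIs per H2-K1 UMI, against 0.852 to 3.57 in the other epithelial sums. H2-D1 was 657 and 712 CPM, and Tap1 had 0 and 2 UMIs. The light chain transcript was thus high in C5 while both heavy chain transcripts were in the range of the other clusters.

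The B2m level of C5 was shared by most of its cells. The median cell had 9446 CPM in G mouse 1 (3279 to 24297) and 9778 CPM in G mouse 2 (1679 to 24938), while the median of the other epithelial cells of these mice was 1796 and 1630 CPM. Of those other cells 0.118% and 0% reached the median of C5. The cells were hormone-sensing by their markers, with Prlr, the prolactin receptor, at 811 and 1060.5 CPM, Pgr, the progesterone receptor, at 114 and 120.0 CPM and Esr1, the oestrogen receptor, at 48.7 and 69.7 CPM.

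The same cells held 1 class II transcript without the others. H2-Eb1 was 97.4 and 92.9 CPM, the highest epithelial mean of this gene, while Cd74 was 8.11 and 7.74 CPM, H2-Aa 16.2 and 3.87 CPM and H2-Ab1 16.2 and 11.6 CPM. These levels rest on 12 and 24 H2-Eb1 UMIs, which lay in 9 of 20 and 18 of 41 cells with at most 3 and 2 UMIs in a cell, so that no 1 cell carried the signal. Cells without a UMI of 19 immune markers held 12 and 22 of these UMIs. Of the other epithelial cells of the same mice 7.82% and 8.47% had an H2-Eb1 UMI, at a median depth of 9752 and 7855 UMIs against 6223.5 and 5514 in C5.

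After each cell was thinned to 1000 UMIs, 5.0% and 7.32% of C5 cells kept an H2-Eb1 UMI (exact 95% intervals 0.127% to 24.9% and 1.54% to 19.9%), against 1.09% and 0.935% in C8 (0.676% to 1.66% and 0.546% to 1.49%). The thinned shares of C5 are 1 and 3 cells, so that at this depth C5 and C8 could not be told apart in G mouse 1. Without thinning the shares of C5 were 45.0% and 43.9%.

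In hormone-sensing cells after involution the level of H2-Eb1 beside its relatives differed between clusters and mice, at low levels. C3 had 20 and 124 H2-Eb1 UMIs beside 17 and 125 of Cd74, and 1.43 H2-Eb1 UMIs for each H2-Ab1 UMI in PI mouse 2. In C1 the ratio was 0.538 in PI mouse 1 and 1.38 in PI mouse 2, and C4 of the PI mice had 0 H2-Eb1 UMIs. The ratio was 0.793 to 0.927 in C17 and 0.587 and 0.588 in C8.

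Class II transcripts of the epithelium were far below those of immune cells. Cd74 was 29294 to 46606 CPM over the sums of C17. The highest epithelial levels by the mean of 2 mice, other than C12 of the PI mice, were those of the alveolar progenitors of lactation (C11, 290.5 and 228 CPM) and of C13 (172 and 212 CPM). In L mouse 1 of C11, 1 cell with 54 immune UMIs held 232 of the 314 Cd74 UMIs, and without it Cd74 was 76.3 CPM, below both mice of C13. C14 had 116 and 100.3 CPM, the basal cells of NP mice (C12) 88.4 and 66.8 CPM, C8 50.6 and 59.8 CPM and C6 9.36 and 9.54 CPM.

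H2-Ab1, the I-A beta chain gene, stood at 81.4 and 92.9 CPM in C11, 53.5 and 55.1 CPM in C14, 31.8 and 40.0 CPM in C13 and 12.7 and 11.4 CPM in C12 of NP mice. H2-Aa, the I-A alpha chain gene, was 43.5 and 83.5 CPM in C11 and 2.13 and 0 CPM in the hormone-sensing progenitors of NP mice (C2). Without that 1 cell, L mouse 1 of C11 had 48.4 CPM of H2-Ab1 and 22.3 CPM of H2-Aa. L mouse 2 of C11 also had 1 high cell, without which its summed class II level was 148 CPM in place of 491. Over the 35 sums H2-Aa, H2-Ab1 and Cd74 correlated with each other at Pearson's r of 0.922 to 0.961 on log2(CPM + 1), and with H2-Eb1 at 0.773 to 0.882. These are descriptions over sums that share mice, depth and immune RNA.

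**Figure D2:**
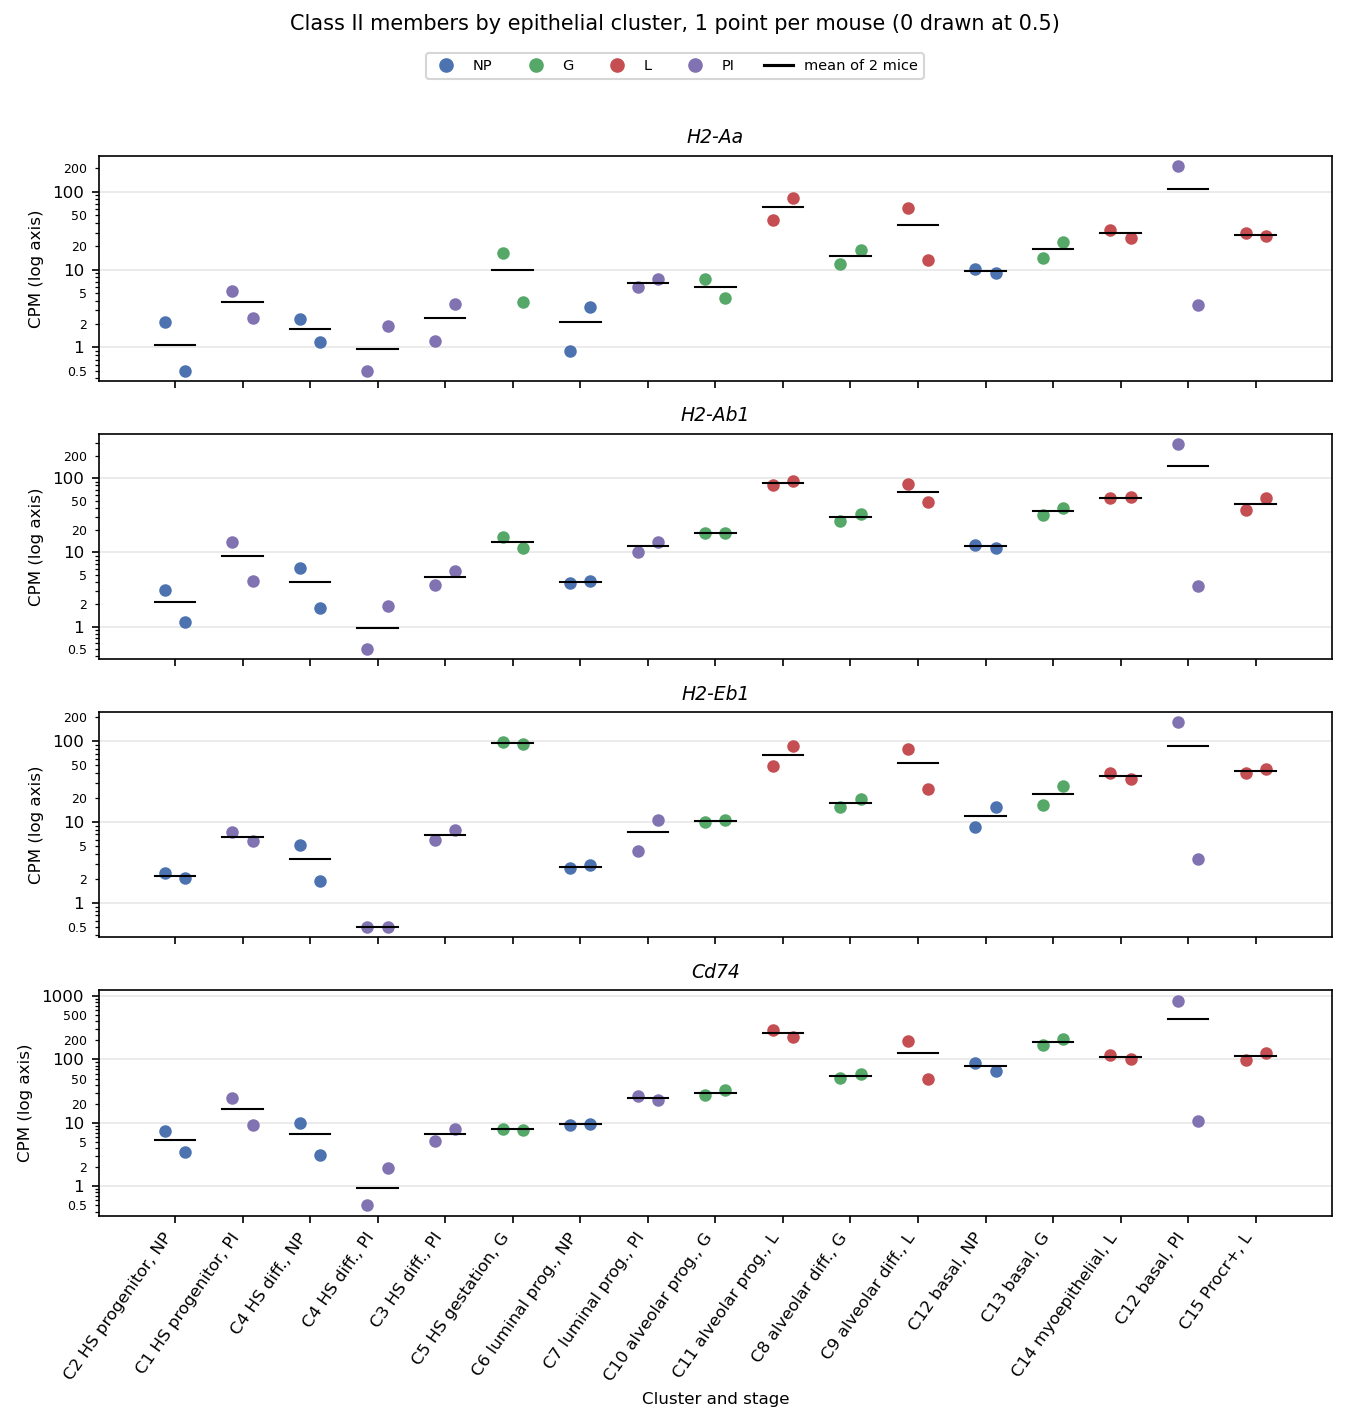
Levels of 4 class II genes (CPM, log axis; 0 drawn at 0.5) by cluster and stage, with 1 point per mouse and a line at the mean of 2 mice. C5 stands out in H2-Eb1 and not in Cd74, and the PI mice of C12 lie far apart in all 4 genes.

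Ciita was at the edge of detection. It had 6 UMIs in C13 of G mouse 2, 7 in C14 of L mouse 1, 6 in C8 of G mouse 2 and at most 3 in every other epithelial sum, with 0 in C1, C3, C4, C5, C9, C10, C11 and C15. The highest epithelial level was 1.37 CPM, against 8.55 to 26.8 CPM in C17. Ciita passed the filter on low counts in no comparison and was not tested. Where 0 UMIs were seen, Ciita was not detectable at this depth.

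Free RNA from broken immune cells, or an immune cell caught with an epithelial cell, gives class II UMIs to epithelial barcodes, and so the class II level of each sum was set against the immune markers of the same sum. With 8 pan-leukocyte markers, the summed class II level was above 2 times what these markers allow at the ratio of the immune cells in 1 of 35 sums, with a median of 0.329. Arhgdib, 1 of these markers, is also made by basal cells, and without it 3 of 35 sums were above 2, with a median of 0.676. C17 holds myeloid cells by its markers, with C1qb, a macrophage gene, at 3408 to 4560.4 CPM, and against 6 myeloid markers alone 5 of 35 sums were above 2, with a median of 1.01. Both of these last settings were chosen after the data had been seen.

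Most sums thus lay near or below the class II level that goes with their myeloid markers. C14 held 0.817 and 0.923 times that level, C8 1.23 and 1.01 times, C9 0.793 and 0.780 times and C15 0.964 and 0.927 times. The sums above 2 were C12 of PI mouse 1 (13.1 times, counted against a floor of 3 UMIs), C12 of NP mouse 1 (3.20), C1 of PI mouse 1 (2.47), C11 of L mouse 2 (2.36) and C5 of G mouse 2 (2.32). In each of the first 4 the other mouse of the stage was lower, at 0.464, 1.27, 0.611 and 1.20 times, and the other mouse of C5 had 1.31 times. The class II level of C11 in L mouse 2 rested largely on 1 cell, as described above. The reference cells were almost all of G and L mice, so that NP and PI sums were set against other stages. C17 held 65379 CPM of class II beside 15310 CPM of myeloid markers over all libraries. The 3 C16 cells of PI mouse 1 held 21671 beside 1943 CPM, and the 7 of NP mouse 1 held 16471 beside 1655. The 6 C17 cells of PI mouse 2 held 59024 beside 17130. The part of the reference in these values was not tested.

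**Figure D3:**
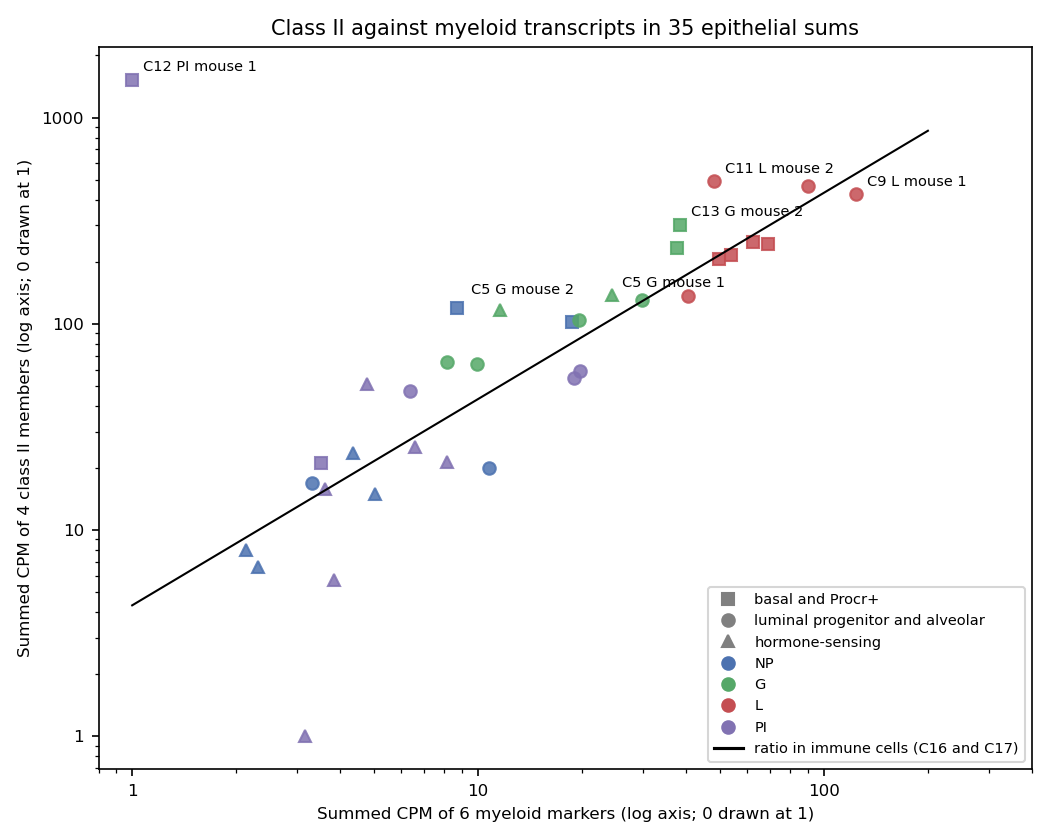
Summed CPM of 4 class II genes against summed CPM of 6 myeloid markers in 35 epithelial sums (log axes; 0 drawn at 1), coloured by stage and shaped by cell type. The line is the ratio in the immune clusters, whose cells were almost all of G and L mice. Most sums lie near it, and C12 of PI mouse 1 lies far above it with no myeloid UMI.

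The share of cells with a class II UMI was low in luminal progenitors and highest in basal cells of G and L mice. After thinning to 1000 UMIs it was 1.61% and 0.949% in C6, 4.72% and 6.11% in C8, 14.7% and 19.5% in C13 and 19% and 17.2% in C14, and 100% in C17. Without thinning it was 13.2% and 6.65%, 39.7% and 41.1%, 58.3% and 65.0%, and 54.0% and 56.0%. Fibroblasts (C18), which are not known to make class II at rest, had thinned shares of 20.1% and 13.5% in the L mice and 5.26% and 9.68% in the G mice. The median depth was 3701 and 4148 UMIs in C14 and 4043.5 and 4015 in C18 of the L mice. That of C13 was above the share of the fibroblasts in both G mice, but the intervals overlap (exact 95%, 11.8% to 18% and 16.4% to 22.9%, against 0.644% to 17.7% and 2.04% to 25.8% in C18, with median depths of 6201 and 6060 UMIs against 5379 and 4619).

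In basal cells of the NP and the G mice Cd74 went beyond the other class II genes. Cd74 had 6.96 and 5.84 UMIs per H2-Ab1 UMI in C12 of the NP mice and 5.39 and 5.29 in C13, against 2.60 to 3.57 in C17. In C14 the ratio was 2.17 and 1.82, below that of C17 of the same mice, and in C8 it was 1.92 and 1.82.

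Against the myeloid markers, Cd74 was 1.92 and 2.33 times the level they allow in C13, and H2-Ab1 1.11 and 1.37 times and H2-Aa 0.693 and 1.09 times. In C12 of the NP mice Cd74 was 4.29 and 1.5 times that level, with immune cells almost all of G and L mice as the reference. With cells that held any UMI of 19 immune markers left out, Cd74 was still 70.9 and 42.7 CPM in C12 of NP mice and 148 and 163 CPM in C13. In C11 the same step lowered Cd74 to 58.6 and 46.7 CPM, and in C8 to 29.5 and 27.4 CPM. Cells without immune UMIs are also shallower cells, and what part depth has in this was not tested. Leaving out marked cells also cannot take free immune RNA out of the cells that remain. In C17 class II was 65379 CPM, beside 15310 CPM of the myeloid and 3276 CPM of the pan-leukocyte markers. Free RNA can thus give a cell class II UMIs and no marker UMI.

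**Figure D4:**
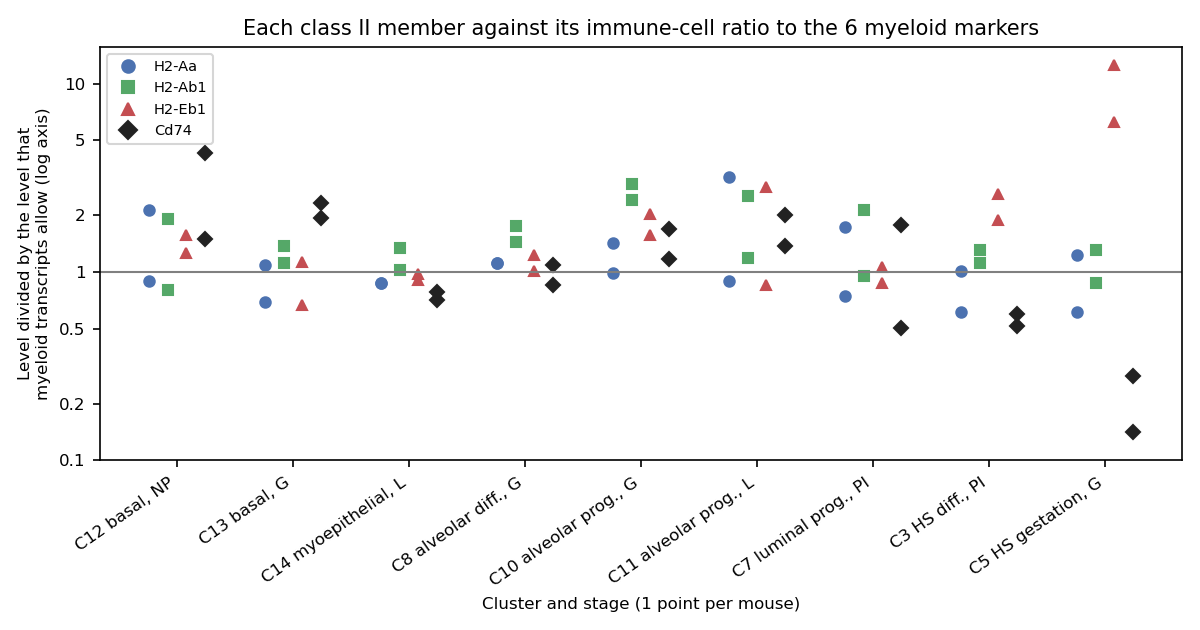
Level of each class II gene divided by the level that 6 myeloid markers of the same sum allow at the ratio of immune cells (log axis), for 9 combinations of cluster and stage with 1 point per mouse, and a floor of 3 marker UMIs. In C5 H2-Eb1 lies at 6.25 and 12.5 and Cd74 at 0.141 and 0.281, and in C13 Cd74 lies above the other class II genes.

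Few cells carried much of the class II transcript. Of 23099 epithelial cells, 506 had 5 or more class II UMIs, a threshold chosen after the data had been seen, and these held 46.4% of all class II UMIs. Of the 506 cells, 202 had no UMI of the 19 immune markers and 146 had 3 or more. Those without an immune UMI held the markers of their own lineage in the basal clusters, and in C13 the 26 and 26 such cells had 16272 and 12566 CPM of the basal markers Krt5, Krt14 and Acta2, beside 18039 and 14378 CPM in the other cells. In the luminal progenitors of PI mice (C7) basal markers were higher in such cells, at 388 CPM beside 41.2 in PI mouse 1 (9 cells) and 819.6 CPM beside 127 in PI mouse 2 (1 cell), and their luminal markers were at 20096 and 28388 CPM beside 19229 and 17896.

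The same cells of C13 had more class I transcript, at 3872 and 3426 CPM beside 2635 and 2247 CPM in the others. In C12 of the NP mice the 16 and 4 such cells held 90 and 24 Cd74 UMIs beside 7 and 2 of H2-Ab1. These cells were also deeper than the others, with a median of 11466 and 8720 UMIs against 5980 and 6286 in C12.

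Basal cells of PI mouse 1 held the most marked case. Of 27 cells in C12, 5 held 169 of the 170 class II UMIs, and no cell of the sum had a UMI of the immune markers. The 5 cells had 6665 CPM of basal markers beside 9218 in the other cells, and 10058 CPM of class I transcripts beside 2193. All 4 class II genes took part, but the 5 cells were not alike. The cell with 5 class II UMIs had 0 of H2-Aa and H2-Ab1, 3 of Krt14 and 23 of Procr. The cell with 73 class II UMIs had 8 of the luminal Krt8 and 14 of Krt18 beside 16 of Krt14. Over all 27 cells of the sum Cd74 was 851 CPM, H2-Ab1 287 CPM, H2-Aa 215 CPM and H2-Eb1 170.3 CPM. Without these cells the summed class II level fell from 1524 to 11.5 CPM, and in PI mouse 2 it was 21.1 CPM. By vaginal smear PI mouse 1 was in dioestrus and PI mouse 2, like both NP mice, in oestrus, and the part of cycle stage in these values was not tested.

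In C11 of L mouse 1, in contrast, 1 cell held 308 of 502 class II UMIs together with 54 immune UMIs. Without this cell the summed level was 181 CPM in place of 464, and Cd74 was 76.3 CPM. In L mouse 2 of C11 the summed level likewise fell from 491 to 148 CPM without its highest cell.

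The comparison of NP with PI mice asks what differs in each cell type between mice before and after a full cycle of pregnancy and lactation. UMIs were summed per mouse over the clusters of a cell type and tested with edgeR's quasi-likelihood test at an adjusted p under 0.05, with 9 of the 10 genes passing the filter on low counts each time. Labels give each library as a separate mouse, so that p-values measure the spread between mice. The same 4 mice enter each cell type's comparison. Where a call is said to be lost, the brackets hold the log2 fold change and then the adjusted p. The class I heavy chain genes rose after involution in all 3 luminal cell types.

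In luminal progenitors (C6 and C7) all 3 class I and all 4 class II genes rose, which is 7 of the 9 tested where 13.9% of all genes tested rose. H2-K1 was 403 and 359.7 CPM in the NP mice and 651 and 545 CPM in the PI mice (log2 fold change 0.73 ± 0.14 SE, adjusted p = 0.00276). H2-D1 was 769.5 and 717 CPM in the NP mice and 1158 and 1006 CPM in the PI mice (log2 fold change 0.62 ± 0.14 SE, adjusted p = 0.00705). B2m was 370.3 and 352 CPM in the NP mice and 593 and 465 CPM in the PI mice (log2 fold change 0.63 ± 0.14 SE, adjusted p = 0.00788).

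For each of these class I genes both PI mice were above both NP mice. Tap1 and Tap2 did not pass, with 15.4 and 13.2 CPM in the NP mice and 13.1 and 11.8 CPM in the PI mice of Tap1 (log2 fold change -0.13 ± 0.21 SE, adjusted p = 0.701) and 52.2 and 49.3 CPM in the NP mice and 62.2 and 54.8 CPM in the PI mice of Tap2 (log2 fold change 0.28 ± 0.14 SE, adjusted p = 0.161). The call of H2-D1 was lost without NP mouse 2 (0.60, adjusted p = 0.0590), and that of B2m without NP mouse 1 (0.64, adjusted p = 0.0504) or NP mouse 2 (0.62, adjusted p = 0.0515).

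The class II genes of luminal progenitors rose from very low levels. Cd74 was 9.36 and 9.52 CPM in the NP mice and 26.6 and 22.6 CPM in the PI mice (log2 fold change 1.46 ± 0.21 SE, adjusted p = 5.06e-04). H2-Ab1 was 3.92 and 4.14 CPM in the NP mice and 10.5 and 13.7 CPM in the PI mice (log2 fold change 1.67 ± 0.31 SE, adjusted p = 0.00264). H2-Aa was 0.905 and 3.31 CPM in the NP mice and 5.96 and 7.60 CPM in the PI mice (log2 fold change 1.87 ± 0.49 SE, adjusted p = 0.0163).

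H2-Eb1 was 2.72 and 2.90 CPM in the NP mice and 4.37 and 10.6 CPM in the PI mice (log2 fold change 1.51 ± 0.51 SE, adjusted p = 0.0492), and again the groups did not overlap. Immune markers moved beside these genes, in that the myeloid sum was 3.32 and 10.8 CPM in C6 and 6.36 and 19 CPM in C7, and the 2 myeloid markers tested had a median log2 fold change of 1.23. With every cell that held a UMI of the 20 immune markers left out, Cd74 was 0.33 (adjusted p = 0.638), H2-Ab1 0.99 (0.0610), H2-Aa 1.19 (0.132) and H2-Eb1 0.56 (0.492), while the 3 class I genes still passed. The H2-Aa call was also lost with DESeq2's Wald test (1.84, 0.0681), without NP mouse 1 (1.09, 0.162) or PI mouse 2 (1.67, 0.0602), and that of H2-Eb1 with DESeq2 (1.51, 0.123) and without NP mouse 1 (1.43, 0.175), NP mouse 2 (1.57, 0.102) or PI mouse 2 (0.72, 0.429).

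In hormone-sensing progenitors (C1 and C2) H2-K1, H2-D1, Tap2 and H2-Eb1 rose, 4 of 9 against 9.58% of all genes tested. H2-K1 was 492 and 404 CPM in the NP mice and 963 and 678 CPM in the PI mice (log2 fold change 0.85 ± 0.18 SE, adjusted p = 0.00662). H2-D1 was 913 and 717 CPM in the NP mice and 1616 and 1209.9 CPM in the PI mice (log2 fold change 0.78 ± 0.18 SE, adjusted p = 0.0121). Tap2 was 74.7 and 56.9 CPM in the NP mice and 103 and 109.8 CPM in the PI mice (log2 fold change 0.68 ± 0.15 SE, adjusted p = 0.00804).

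H2-Eb1 was 2.32 and 2.02 CPM in the NP mice and 7.18 and 5.75 CPM in the PI mice (log2 fold change 1.5 ± 0.41 SE, adjusted p = 0.0263). It passed also in cells without immune UMIs (1.84, adjusted p = 0.0250), in which free immune RNA can remain. B2m, which rose in luminal progenitors, was here 1099.9 and 1074 CPM in the NP mice and 1344 and 1047 CPM in the PI mice (log2 fold change 0.12 ± 0.17 SE, adjusted p = 0.679). Cd74 (log2 fold change 1.35 ± 0.44 SE, adjusted p = 0.0535) and H2-Ab1 (log2 fold change 1.72 ± 0.59 SE, adjusted p = 0.0661) missed the threshold. Both passed with a replicate block (Cd74 1.59, adjusted p = 0.00430, and H2-Ab1 2.05, 0.0101), without a filter on low counts (1.36, 3.16e-05, and 1.74, 4.94e-04) and without PI mouse 2 (2.05, 3.33e-08, and 2.56, 3.69e-05), and Cd74 also with DESeq2's size factors (1.36, 0.0456). The calls of H2-K1 (0.97, adjusted p = 0.0637, and 0.76, 0.143) and H2-D1 (0.93, 0.0703, and 0.65, 0.195) were lost without NP mouse 1 and without NP mouse 2, that of Tap2 without NP mouse 2 (0.54, 0.159), and that of H2-Eb1 without any 1 of the 4 mice (1.40 to 1.67 on the log2 scale) and with DESeq2 (1.55, 0.203).

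In differentiated hormone-sensing cells (C3 and C4) H2-K1, H2-D1 and Tap2 rose, 3 of 9 against 7.64% of all genes tested. H2-K1 was 622 and 476 CPM in the NP mice and 1162 and 942 CPM in the PI mice (log2 fold change 0.88 ± 0.19 SE, adjusted p = 0.0103). H2-D1 was 1211 and 872 CPM in the NP mice and 2212 and 1811 CPM in the PI mice (log2 fold change 0.89 ± 0.21 SE, adjusted p = 0.0154). Tap2 was 99.8 and 60.7 CPM in the NP mice and 154 and 191 CPM in the PI mice (log2 fold change 1.07 ± 0.21 SE, adjusted p = 0.00713).

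Both PI mice were above both NP mice in these 3 genes. B2m was 1733 and 1567 CPM in the NP mice and 1837 and 1933 CPM in the PI mice (log2 fold change 0.14 ± 0.20 SE, adjusted p = 0.697), and 0 of the 4 class II genes passed in the reported edgeR fit or in DESeq2's Wald test, with 1 of 4 at an unadjusted p under 0.05 in edgeR. H2-Eb1 had log2 fold change 0.99 ± 0.38 SE, adjusted p = 0.109. It passed in edgeR without cells with immune UMIs (1.59, adjusted p = 0.00838), with a replicate block (1.11, 0.0110), without a filter on low counts (0.99, 0.00430), without NP mouse 1 (1.81, 0.0126) and without PI mouse 1 (1.19, 0.00757). The calls of H2-K1 (0.73, 0.082) and H2-D1 (0.71, 0.127) were lost without NP mouse 2.

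A test of the difference between luminal progenitors and differentiated hormone-sensing cells in this change called 2 of the 9 genes, where 13% of all genes tested were called and 6.27% were lower in luminal progenitors. Tap2 rose less in luminal progenitors (log2 fold change -0.78 ± 0.23 SE, adjusted p = 0.0326), and Cd74 more (log2 fold change 1.39 ± 0.44 SE, adjusted p = 0.0448). B2m (log2 fold change 0.49 ± 0.19 SE, adjusted p = 0.113) and H2-K1 (log2 fold change -0.16 ± 0.17 SE, adjusted p = 0.615) did not pass, though B2m passed with thinned cells (0.80, 0.00523) and without PI mouse 2 (0.77, 0.00274). With DESeq2 the Cd74 difference was 1.42 (adjusted p = 0.294) and that of Tap2 -0.77 (0.177). Without immune-marked cells the Cd74 difference was 0.43 (adjusted p = 0.662), and without NP mouse 1 0.41 (0.712), while the Tap2 difference was -0.45 (0.318) without NP mouse 2 and -0.44 (0.167) without PI mouse 2.

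In basal cells (C12 to C14) 1 gene, H2-D1, rose after involution in the fit over all 8 mice, 1 of 9 against 1.92% of all genes tested (2.54% fell, 4.47% in all), in sums of only 28 and 59 cells of PI mice. It was 722 and 536 CPM in the NP mice and 1827 and 1209 CPM in the PI mice (log2 fold change 1.07 ± 0.19 SE, adjusted p = 0.00333), and 0.81 with an adjusted p of 0.0701 without PI mouse 1. With only the 4 mice compared, the form of fit used for the luminal cell types, 6 of 9 passed, which were H2-D1 (1.23, adjusted p = 1.95e-04), H2-K1 (0.82, 0.00474), B2m (0.75, 0.0122), H2-Aa (2.68, 0.0261), H2-Ab1 (2.84, 0.0167) and Cd74 (1.91, 0.0409), and 5 passed without cells that held immune UMIs. Of all genes 632 passed with only the 4 mice compared, 1.19 times as many as in the fit over all 8 mice. The 5 class II cells of PI mouse 1 held 107 of the 204 H2-D1 UMIs of its C12, and without them H2-D1 was 1113 CPM there in place of 1828, H2-K1 551 in place of 807 and B2m 528 in place of 1282. H2-K1 was 449 and 368 CPM in the NP mice and 787 and 685 CPM in the PI mice and missed the threshold (log2 fold change 0.67 ± 0.19 SE, adjusted p = 0.0520). Cd74 was 88.4 and 66.5 CPM in the NP mice and 831 and 28.8 CPM in the PI mice (log2 fold change 1.81 ± 0.65 SE, adjusted p = 0.128), with the same 5 cells setting the higher value, and without that mouse its log2 fold change was -1.58. The median of all genes tested was -0.20 in this comparison.

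Other genes of the pathway also changed after involution. Of 6 other class I genes, 3 rose in luminal progenitors, 3 in hormone-sensing progenitors and 4 in differentiated hormone-sensing cells, where 1 fell. H2-Q7 led in each, with 5.13 and 3.31 CPM in the NP mice and 27.7 and 21.7 CPM in the PI mice in luminal progenitors (log2 fold change 2.58 ± 0.27 SE, adjusted p = 7.04e-05), a log2 fold change of 1.70 ± 0.25 SE in hormone-sensing progenitors and 1.84 ± 0.17 in the differentiated cells. H2-Q4 fell in the last (log2 fold change -0.63 ± 0.17 SE, adjusted p = 0.0278).

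The immunoproteasome, which cuts proteins into peptides that suit class I grooves, rose in part, with 3, 2 and 2 of its 5 genes. Psmb8 was 83.6 and 79.9 CPM in the NP mice and 121 and 118 CPM in the PI mice in luminal progenitors (log2 fold change 0.63 ± 0.12 SE, adjusted p = 0.00361) and 217 and 161 CPM in the NP mice and 369.6 and 413 CPM in the PI mice in differentiated hormone-sensing cells (log2 fold change 1.0 ± 0.18 SE, adjusted p = 0.00383). Psmb9 also rose in all 3 cell types, by 0.79, 0.75 and 0.84 on the log2 scale. Of 6 peptide loading genes 1, 2 and 1 rose, in each case with Calr, the chaperone calreticulin, by 0.44, 0.71 and 0.85.

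Of 4 tested genes of class II loading and lysosomal processing, 2, 2 and 3 rose. Ifi30, a thiol reductase of the lysosome, rose by 1.19, 0.84 and 1.14 and Lgmn, the protease legumain, by 0.80, 0.89 and 0.96. H2-DMb1, a chain of the class II peptide editor, was 26.1 and 24.2 CPM in the NP mice and 51.0 and 47.5 CPM in the PI mice in differentiated hormone-sensing cells (log2 fold change 0.91 ± 0.14 SE, adjusted p = 0.00184).

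Among regulators of these genes, 3 of 13 tested fell in luminal progenitors, where 1398 of all 10766 genes tested fell. Of 14 in hormone-sensing progenitors 1 rose (Rfxap, by 0.63) and 2 fell, where 7.05% of all genes tested fell. Of 14 in differentiated cells 0 passed in edgeR, with 3 at an unadjusted p under 0.05. Rfx5, a factor that binds the promoters of both classes, was 13.6 and 21.1 CPM in the NP mice and 6.89 and 6.23 CPM in the PI mice in luminal progenitors (log2 fold change -1.29 ± 0.27 SE, adjusted p = 0.00528) and fell by 0.79 on the log2 scale in hormone-sensing progenitors. Irf2 fell by 0.82 and 0.61 in these cell types, and Nfyb by 0.61 in luminal progenitors. In basal cells 1 of 6 other class I genes rose (H2-Q7, log2 fold change 3.06 ± 0.55 SE, adjusted p = 0.00317) and 1 of 14 regulators fell (the interferon gamma receptor chain Ifngr2, log2 fold change -1.40 ± 0.36 SE, adjusted p = 0.0314), while 0 of 6 peptide loading, 0 of 5 immunoproteasome and 0 of 5 class II loading genes passed in edgeR, with 1, 1 and 0 at an unadjusted p under 0.05.

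**Figure D5:**
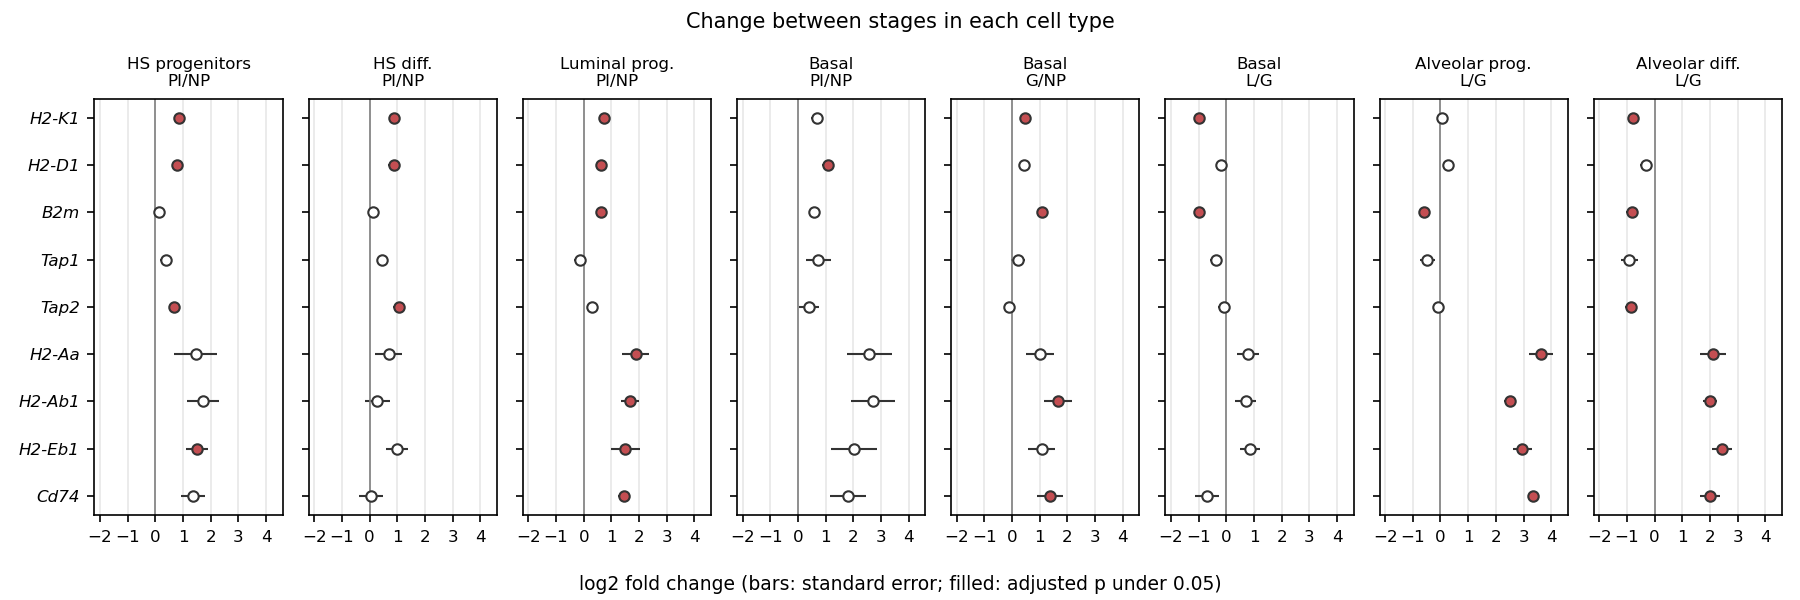
Log2 fold change between stages (x axis; bars are SE) of the 9 tested genes in 8 comparisons of cell types, with filled points for an adjusted p under 0.05. H2-K1 and H2-D1 lie right of 0 after involution, and in alveolar cells of lactation the class II genes lie right of 0 while B2m lies left.

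Basal cells were followed from NP to G to L in 1 fit over all 8 mice. From NP to G, H2-K1, B2m, H2-Ab1 and Cd74 rose, 4 of 9 against 21% of all genes tested. B2m was 679 and 573 CPM in the NP mice and 1373 and 1113 CPM in the G mice (log2 fold change 1.06 ± 0.18 SE, adjusted p = 1.81e-04), with no overlap. H2-K1 was 449 and 368 CPM in the NP mice and 568 and 513 CPM in the G mice (log2 fold change 0.48 ± 0.17 SE, adjusted p = 0.0306), and H2-D1 did not pass (log2 fold change 0.43 ± 0.18 SE, adjusted p = 0.0638). With only the 4 mice compared 7 of 9 passed, H2-D1 (0.45, adjusted p = 0.0142), H2-Aa (1.02, 0.00686) and H2-Eb1 (1.07, 0.00830) in addition. Over the 3 basal comparisons such fits called 1.03 to 1.19 times as many of all genes as the fit over all 8 mice.

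Cd74 was 88.4 and 66.5 CPM in the NP mice and 173 and 210.3 CPM in the G mice (log2 fold change 1.37 ± 0.48 SE, adjusted p = 0.0300). H2-Ab1 was 12.7 and 11.4 CPM in the NP mice and 32.4 and 40.2 CPM in the G mice (log2 fold change 1.66 ± 0.50 SE, adjusted p = 0.0139). Of the immune markers, 4 of 5 tested pan-leukocyte and 5 of 6 myeloid genes rose as well, and the myeloid sum was 8.70 and 18.8 CPM in C12 of NP mice and 37.7 and 38.4 CPM in C13. In cells without immune UMIs both genes still passed, with Cd74 at 1.48 (adjusted p = 0.0267) and H2-Ab1 at 2.19 (0.0146). Such cells can still hold free immune RNA, and its part was not tested. The Cd74 call was lost without any 1 of the 4 mice (1.22 to 1.58, adjusted p 0.058 to 0.136). With DESeq2 Cd74 was 1.45 (0.392) and H2-Ab1 1.73 (0.376). The call of H2-Ab1 was lost without NP mouse 1 (1.73, 0.0975), NP mouse 2 (1.62, 0.0504) or G mouse 2 (1.51, 0.0609), and that of H2-K1 without NP mouse 1 (0.61, 0.0567), NP mouse 2 (0.37, 0.202) or G mouse 1 (0.40, 0.168).

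With them 5 of 6 other class I genes rose in basal cells of gestation, among them H2-T22 (log2 fold change 1.19 ± 0.19 SE, adjusted p = 1.37e-04) and H2-Q6 (log2 fold change 2.23 ± 0.48 SE, adjusted p = 0.00164). Psmb9 (log2 fold change 1.47 ± 0.34 SE, adjusted p = 0.00239) and Psmb8 (log2 fold change 0.44 ± 0.15 SE, adjusted p = 0.0324) were 2 of 5 immunoproteasome genes that rose. Of 5 tested class II loading genes 3 rose, which were H2-DMb1 (1.38), Ifi30 (0.99) and the protease Ctss (1.71), the last a gene of macrophages too. Peptide loading genes went both ways, with Erap1, which trims peptides, at 0.82 and Tapbpl at -0.58. Among 14 regulators Irf1, Ifngr1 and Ifngr2 fell, by 0.82, 0.85 and 0.67 on the log2 scale.

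From G to L, 2 class I genes of basal cells fell. H2-K1 and B2m were the 2 of 9 that passed, where 24.9% of all genes tested fell and 50.1% changed. H2-K1 was 568 and 513 CPM in the G mice and 206 and 298 CPM in the L mice (log2 fold change -0.97 ± 0.17 SE, adjusted p = 1.36e-04), and B2m 1373 and 1113 CPM in the G mice and 481 and 673 CPM in the L mice (log2 fold change -0.98 ± 0.18 SE, adjusted p = 2.13e-04), in both cases with no overlap. H2-D1 was 838 and 774 CPM in the G mice and 549 and 739 CPM in the L mice and did not pass (log2 fold change -0.19 ± 0.18 SE, adjusted p = 0.384).

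The calls of the 4 class II genes depended on the fit. In the fit over all 8 mice 0 of 4 passed in edgeR, with 1 of 4 at an unadjusted p under 0.05, and 0 with DESeq2's Wald test. Cd74 was 173 and 210.3 CPM in the G mice and 116 and 100.4 CPM in the L mice (log2 fold change -0.69 ± 0.44 SE, adjusted p = 0.201), while H2-Ab1 was 32.4 and 40.2 CPM in the G mice and 53.5 and 55.1 CPM in the L mice (log2 fold change 0.71 ± 0.38 SE, adjusted p = 0.131) and H2-Eb1 16.3 and 27.6 CPM in the G mice and 39.9 and 33.5 CPM in the L mice (log2 fold change 0.86 ± 0.36 SE, adjusted p = 0.0577). With only the 4 mice compared all 4 passed, Cd74 as lower in L (-0.71, adjusted p = 0.00338) and H2-Ab1 (0.69, 0.00573), H2-Eb1 (0.84, 0.0135) and H2-Aa (0.77, 0.0212) as higher, and the same 4 passed without a filter on low counts. Of all genes 6138 passed with only the 4 mice compared. This was 1.03 times as many as in the fit over all 8 mice, whose share is given above. Without immune-marked cells H2-Eb1 (2.06, adjusted p = 0.00116), H2-Aa (1.53, 0.0123) and H2-Ab1 (1.13, 0.0423) passed as higher in L. The myeloid sum was higher in C14 (68.8 and 53.9 CPM) than in C13, and its part in these values was not tested.

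Other genes of the class I pathway also fell. Of 5 immunoproteasome genes 3 fell (Psmb8, log2 fold change -1.19 ± 0.15 SE, adjusted p = 4.82e-06, and Psmb10 and Psmb9 by 1.11 and 0.85), and of 6 peptide loading genes 4 fell (Erap1 by 0.96, Calr by 0.74, Tapbpl by 0.73 and Pdia3 by 0.64). The share of all genes tested that fell is given above with H2-K1 and B2m, and these counts were not tested against it. H2-Q6 and H2-Q7 fell by 1.73 and 1.76, while H2-Q4 was 103 and 81.0 CPM in the G mice and 361 and 439 CPM in the L mice (log2 fold change 2.25 ± 0.16 SE, adjusted p = 9.48e-09). Of 14 regulators 4 fell, a share near that of all genes tested that fell, given above. Among the 4 was Nlrc5, the class I co-activator, which was 9.81 and 9.20 CPM in the G mice and 2.79 and 4.09 CPM in the L mice (log2 fold change -1.34 ± 0.31 SE, adjusted p = 0.00177). Irf1 rose (log2 fold change 1.43 ± 0.25 SE, adjusted p = 1.66e-04).

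In both alveolar cell types all 4 class II genes rose from G to L, while 2 of 3 class I genes fell in differentiated cells and 1 of 3 in progenitors. The difference between the classes was not tested. Milk transcripts took 447538 and 417202 CPM in the differentiated alveolar cells of lactation (C9) and 96653 and 57393 CPM in C8, which lowers the CPM of every other gene, so that fold changes fitted with TMM scaling lie above the ratios of the CPM. In differentiated alveolar cells (C8 and C9; 43 and 48 cells in the L mice) H2-K1, B2m and Tap2 fell and all 4 class II genes rose, against 9.17% of all genes tested that fell and 9.54% that rose.

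H2-K1 was 1080.1 and 1031 CPM in the G mice and 303 and 356 CPM in the L mice (log2 fold change -0.77 ± 0.20 SE, adjusted p = 0.0165). B2m was 2154 and 2064 CPM in the G mice and 564 and 724 CPM in the L mice (log2 fold change -0.80 ± 0.21 SE, adjusted p = 0.0199). Tap2 was 97.7 and 112 CPM in the G mice and 32.9 and 29.5 CPM in the L mice (log2 fold change -0.85 ± 0.22 SE, adjusted p = 0.0155). The groups did not overlap in these. All 3 calls were lost without G mouse 1, with H2-K1 at -0.53 (0.259), B2m at -0.56 (0.238) and Tap2 at -0.74 (0.171), and without G mouse 2, with -0.68 (0.185), -0.71 (0.188) and -0.62 (0.294). That of Tap2 was also lost without L mouse 2 (-0.85, 0.0657). The median of all genes tested was -0.14.

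Among the class II genes H2-Ab1 was 26.3 and 32.8 CPM in the G mice and 83.1 and 47.0 CPM in the L mice (log2 fold change 2.0 ± 0.24 SE, adjusted p = 1.09e-04). H2-Eb1 was 15.5 and 19.3 CPM in the G mice and 79.7 and 25.5 CPM in the L mice (log2 fold change 2.42 ± 0.36 SE, adjusted p = 4.62e-04). Cd74 was 50.6 and 59.8 CPM in the G mice and 199 and 49.7 CPM in the L mice (log2 fold change 2.0 ± 0.36 SE, adjusted p = 0.00201), so that the mice overlap in CPM.

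H2-Aa overlapped too, with 11.9 and 18 CPM in the G mice and 60.6 and 13.4 CPM in the L mice (log2 fold change 2.12 ± 0.47 SE, adjusted p = 0.00730), and its call was lost without L mouse 1 (0.79, 0.406). Myeloid markers rose beside them, 5 of 6 with a median log2 fold change of 2.65, and their sum was 19.7 and 29.7 CPM in C8 and 124 and 40.4 CPM in C9. In cells without immune UMIs, of which the L mice had 20 and 25, the 4 class II genes passed, with log2 fold changes of 2.69 for H2-Ab1, 2.07 for Cd74, 2.91 for H2-Eb1 and 2.90 for H2-Aa. There H2-K1 (-0.74, adjusted p = 0.0526), B2m (-0.77, 0.0779) and Tap2 (-0.75, 0.181) did not pass. Free immune RNA can remain in these cells, and its part in the class II values was not tested.

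All 5 immunoproteasome genes fell in these cells. Psmb9 was 100.5 and 95.7 CPM in the G mice and 6.93 and 6.71 CPM in the L mice (log2 fold change -2.94 ± 0.32 SE, adjusted p = 4.12e-05), and Psmb8, Psme1, Psmb10 and Psme2 fell by 1.16, 1.10, 1.01 and 0.61 on the log2 scale. H2-Q7 was 135 and 129 CPM in the G mice and 6.93 and 12.1 CPM in the L mice (log2 fold change -2.84 ± 0.30 SE, adjusted p = 2.92e-05), while H2-T23, which encodes the ligand of an inhibitory receptor of natural killer cells, rose (log2 fold change 1.35 ± 0.17 SE, adjusted p = 1.62e-04). Of 6 peptide loading genes and 14 regulators 0 passed in edgeR, with 1 and 4 at an unadjusted p under 0.05.

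In alveolar progenitors (C10 and C11) the 4 class II genes also rose, 4 of 9 genes against 15.7% of all genes tested. Cd74 was 27.5 and 32.4 CPM in the G mice and 280.1 and 224 CPM in the L mice (log2 fold change 3.35 ± 0.20 SE, adjusted p = 4.64e-06). H2-Aa was 7.65 and 4.37 CPM in the G mice and 41.7 and 82.8 CPM in the L mice (log2 fold change 3.63 ± 0.43 SE, adjusted p = 3.21e-04). H2-Eb1 was 9.95 and 10.6 CPM in the G mice and 47.9 and 86.3 CPM in the L mice (log2 fold change 2.95 ± 0.34 SE, adjusted p = 2.98e-04) and H2-Ab1 18.4 and 18.1 CPM in the G mice and 79.8 and 92.0 CPM in the L mice (log2 fold change 2.51 ± 0.22 SE, adjusted p = 4.97e-05).

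No mouse of G reached a mouse of L in these 4 genes, and 232 of the Cd74 UMIs of L mouse 1 lay in the 1 cell of C11 named above. The summed class II level of C11 in L mouse 2 also rested largely on 1 cell, at 148 CPM without it in place of 491. Myeloid transcripts again moved with them, with 9.95 and 8.11 CPM in C10 and 89.7 and 48.2 CPM in C11, and both tested myeloid genes, Tyrobp and C1qb, rose (median 3.39). In cells without immune UMIs the 4 genes still passed, at smaller size: 1.42 for Cd74, 2.15 for H2-Aa, 2.41 for H2-Eb1 and 1.42 for H2-Ab1. This step does not take out free immune RNA, whose part in these values was not tested.

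B2m was the class I gene that fell in alveolar progenitors, 1 of 9 against 12.3% of all genes tested, with 1536 and 1145 CPM in the G mice and 814 and 649.8 CPM in the L mice (log2 fold change -0.59 ± 0.19 SE, adjusted p = 0.0480). The call was lost without G mouse 1 (-0.38, 0.349), with DESeq2's size factors (-0.56, 0.0598) and with its Wald test (-0.56, 0.133). H2-K1 was 705 and 565 CPM in the G mice and 566 and 521 CPM in the L mice (log2 fold change 0.06 ± 0.16 SE, adjusted p = 0.813). The peptide loading genes Pdia3, Calr and Tapbp rose, 3 of 6, with Pdia3 at 268 and 227 CPM in the G mice and 520.2 and 483 CPM in the L mice (log2 fold change 1.31 ± 0.16 SE, adjusted p = 3.59e-04). H2-Q6 and H2-Q7 fell by 2.39 and 2.09, and Psmb9 and Psmb8 by 1.5 and 0.71, while H2-T23 rose (log2 fold change 1.29 ± 0.17 SE, adjusted p = 6.51e-04). Ctss rose too (by 3.62), 1 of 4 class II loading genes, as it did in differentiated alveolar cells (by 2.60, 1 of 6). Of the 4 co-stimulation genes at most 1 could be tested in any comparison and 0 passed in edgeR, with 1 at an unadjusted p under 0.05 in basal cells of PI against NP mice and 0 elsewhere, and no B or T cell marker reached the filter.

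The genes whose levels were most like those of the members were sought over the 35 sums among 8023 genes, as Pearson's r on log2(CPM + 1). Nearest to the class I sum were Prdx2 (0.876), Psmb1 (0.846), Gabarap (0.840), Gfpt1 (0.833) and Cox5a (0.831). Nearest to the class II sum were Mrps6 (0.829), Hsph1 (0.751), 2310001H17Rik (0.749), Plekhf1 (0.748) and Slc5a3 (0.745). The sums share mice, depth and cell types, so that these are descriptions. Among the members H2-K1 correlated with H2-D1 at 0.887 and with Tap2 at 0.852, but with B2m at 0.304.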

How the data were processed

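Droplet single-cell RNA-seq was run on sorted mammary cells of 8 mice, with 1 library per mouse. The authors aligned the reads to mm10 with Cell Ranger and deposited counts of UMIs per gene and cell without normalisation, together with a table of cells that gives their clusters, whether each passed quality filters, and the fraction of UMIs from mitochondrial genes. The authors' filters on depth, gene number and mitochondrial share, and their clusters C1 to C20, were used as given. C20, which the study treats as doublets (310 cells), was left out. No further doublet caller was run, and 0 columns of other samples were found.

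The 10 members and the gene lists were chosen with earlier results of these data known. Genes named are the members, and list genes with an adjusted p under 0.05. The results of 1 list gene are not reported here. Levels are CPM of UMIs summed per mouse and cluster (20 or more cells), and shares of cells come with exact Clopper-Pearson 95% intervals, also after each cell was thinned to 1000 UMIs. These intervals cover counting error only. The class II level that immune markers allow is the summed marker level times the class II to marker ratio of C16 and C17, with a floor of 3 UMIs for markers. Counts summed per mouse and cell type were fitted with edgeR's quasi-likelihood test (4.0.16, R 4.3.3), TMM scaling and filterByExpr (minimum count 10, total 15), with Benjamini-Hochberg adjustment over all genes tested. Basal cells were fitted over all 8 mice, so that the 4 stages share 1 estimate of the spread, and the other cell types over the 4 mice compared. A permutation test of 2 against 2 mice cannot go below an exact p of 0.333. The SE is the log2 fold change divided by the root of its F. The fits were also run on simulated counts, in the same run as the real data. Alternatives were DESeq2 (1.42.0) size factors and Wald test, no filter on low counts, a replicate block, milk genes removed, main clusters only, basal cells of only the 4 mice compared, cells thinned or without immune UMIs, a fold threshold (glmTreat), and leaving out each mouse. In addition, 3 alternatives were chosen after the data had been seen, which were pan-leukocyte markers without Arhgdib, myeloid markers only, and each sum without its cell with most class II UMIs. Promoters are RefSeq's (GRCm38.p6), and gene coordinates are those of GENCODE for GRCm38. Python 3.11.15, NumPy 2.4.6, pandas 2.3.3, SciPy 1.17.1 and matplotlib 3.10.9 were used.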

Additional observations from a re-analysis of the deposited data

Results flagged for a closer look

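The change from NP to PI mice differed between luminal progenitors and differentiated hormone-sensing cells for 2 of the 9 tested genes, by the test of the difference itself. The share of all genes that this test called is given with the result above, and the count of members was not tested against it. For Tap2 the difference in log2 change was -0.78 ± 0.23 SE (edgeR's quasi-likelihood test, adjusted p = 0.0326), with 0.28 in luminal progenitors and 1.07 in hormone-sensing cells. For Cd74 it was 1.39 ± 0.44 (adjusted p = 0.0448), with 1.46 and 0.05. Both calls were lost with DESeq2's Wald test and with thinned cells, and that of Cd74 also without cells that held immune UMIs. Groups of 2 mice are too small for a test of single outlying samples.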

How the results depend on the processing

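Of 311 repeats of the called results of members under other settings, 256 kept direction and call and 55 kept direction only; leaving out a mouse gave 98 and 42 of 140. With 2 mice a stage, low UMI numbers and few cells (28 in basal cells of PI mouse 1), the cause of these losses was not tested. A fold threshold (glmTreat, log2 fold change above 1 at an adjusted p under 0.01) left 0 members in luminal progenitors, both hormone-sensing cell types, the 3 basal comparisons and the difference between cell types, and 2 in differentiated alveolar cells.

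Without cells with immune UMIs 3 members passed in luminal progenitors, 5 in basal PI against NP, 5 in basal L against G, 4 in differentiated alveolar cells and 1 in the difference. With thinned cells, where fewer genes could be tested, 4 passed in luminal progenitors, 4 in basal L against G, 4 in differentiated and 1 in progenitor alveolar cells and 1 in the difference. In basal PI against NP (1 member in the reported fit) 3 passed with DESeq2 size factors, 3 with its Wald test, 7 without a filter on low counts, 3 with main clusters and 6 with only the 4 mice compared. In basal G against NP (4) these were 2 with the Wald test, 7 without a filter and 7 with 4 mice, and in basal L against G (2) 6 without a filter and 6 with 4 mice. The Wald test left 0 in the difference. Over all genes, fits with only the 4 mice compared called 1.03 to 1.19 times as many as the reported fits. Leaving out a mouse gave 4 to 7 members in luminal progenitors, 0 to 5 in hormone-sensing progenitors, 1 to 5 in differentiated hormone-sensing cells, 0 to 5, 1 to 2 and 2 to 4 in the basal comparisons in the order PI, G and L, 4 to 7 and 4 to 6 in differentiated and progenitor alveolar cells, and 1 to 3 in the difference.

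Replicate numbers did not pair the mice (correlations of deviations between -0.051 and 0.073), and with the number as a replicate block 4 members passed in basal PI against NP, with no other count of members moved by over 1.5 times.

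Directions turned, all without a call, in these cases. Without immune-marked cells H2-Aa (-0.086) and Cd74 (-0.27) of differentiated hormone-sensing cells, H2-K1 (-0.024) and Tap2 (0.15) of alveolar progenitors and H2-Eb1 of the difference (-0.88) turned, and Cd74 of hormone-sensing cells also with DESeq2 (-0.027). With thinned cells Tap1 (-1.5) and Tap2 (-1.37) of basal PI against NP, H2-D1 of alveolar progenitors (-0.047) and Tap1 of the difference (0.12) turned. Over the fits that leave out a mouse, the ranges that crossed 0 were those of B2m (-0.037 to 0.27) in hormone-sensing progenitors, H2-Aa (-0.74 to 1.13), H2-Ab1 (-0.37 to 1.31) and Cd74 (-0.57 to 1.0) in differentiated hormone-sensing cells, Tap2 (-0.29 to 0.75), H2-Aa (-1.73 to 4.22), H2-Ab1 (-2.05 to 4.35), H2-Eb1 (-1.93 to 3.68) and Cd74 (-1.58 to 3.19) in basal PI against NP, Tap2 (-0.32 to 0.26) in basal G against NP, H2-D1 (-0.41 to 0.035) and Tap2 (-0.18 to 0.026) in basal L against G, H2-K1 (-0.10 to 0.21) in alveolar progenitors and H2-Eb1 (-0.26 to 1.28) in the difference.

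The class I sum was 4578 CPM in C8 and 2492 in C9 with milk genes removed from the total (4222 and 1419 as reported). The class II sum of C11 was 511 CPM with milk genes removed, 145 without immune-marked cells and 165 without its highest cell (478 as reported), that of C14 182 without immune-marked cells (229), and that of C7 20.2 without immune-marked cells and 35.7 without its highest cell (51.0). Mean shares of cells with a class II UMI were 9.91%, 11.0%, 40.4% and 55% in C6, C7, C8 and C14 without thinning and 2.43%, 4.2%, 10.5% and 32.2% at 2000 UMIs (1.28%, 2.74%, 5.42% and 18.1% as reported). Of the 35 sums, those above 2 times the allowed class II level were 2.86% with pan-leukocyte markers and 14.3% with B, T and myeloid markers. They were 8.57% without Arhgdib and 14.3% with myeloid markers. Against immune cells of the same library they were 0% of 16 sums. These were all of G and L mice, since the NP and PI libraries held too few immune cells.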
